A study of Mus musculus with 18 samples.

Results

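Tgm4 and 9530053A07Rik are 2 of the 55469 genes measured in RNA sequencing libraries of mouse prostate, and both were followed through all 18 libraries. They were chosen on their measured levels, which ranged widely between libraries of the same group, so their levels, shares, ratio and fold changes are descriptions and carry no test. The mice were males of the strain labelled C56NL/6N and formed 6 groups of 3. WT mice carried unaltered Elac2, the gene for a nuclease that trims the 3′ ends of precursor tRNAs. KO mice were homozygous for a prostate-specific deletion made with Pb-Cre, a Cre recombinase driven by the probasin promoter. A537T mice were homozygous for an alanine to threonine exchange in Elac2 throughout the body. Each genotype was sampled at 10 and at 30 weeks of age, as matched littermates, and RNA was taken from the dissected ventral and lateral lobes. In the deposited tables, names 10AF to 12AF stand for the WT, 13AF to 15AF for the KO and 16AF to 18AF for the A537T libraries of 10 weeks. Names 1AF to 3AF, 4AF to 6AF and 7AF to 9AF stand for the same genotypes of 30 weeks.

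The mouse prostate consists of paired ventral, lateral, dorsal and anterior lobes, and their luminal cells secrete different sets of proteins into the seminal fluid. Tgm4 encodes the prostate transglutaminase, which is secreted and cross-links seminal vesicle proteins into the copulatory plug of rodents. It is best known from the anterior lobe, also called the coagulating gland, and the dorsal lobe. 9530053A07Rik encodes a protein resembling the IgG Fc-binding protein Fcgbp, a large secreted protein built of von Willebrand factor D domains like those of mucins. The libraries pool lobes, so the lobe that gave a read cannot be read from them.

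Tgm4 (ENSMUSG00000025787.6) occupies chr9:123034726-123067561 (GRCm38, plus strand). Its coding transcript ENSMUST00000026893.5 has 14 exons, 2785 bases and 670 codons before the stop. 9530053A07Rik (ENSMUSG00000078776.9) occupies chr7:28129466-28164811, also on the plus strand. Its transcript ENSMUST00000059886.11 has 20 exons, 7922 bases and 2581 codons. Fcgbp ends 8603 bases before it on the same strand and also has 20 exons, with 2583 codons. An alignment of the 9530053A07Rik and Fcgbp transcripts had identical bases in 83.6% of its 8031 columns. Of the 31-base windows of the 9530053A07Rik transcript, 15.8% also occur in Fcgbp and no window occurs in a further annotated gene. Of those of the Tgm4 transcript, 10.1% also occur in Gm49323, a gene model that overlaps it on the same strand. Gm49323 had no more than 0.246 CPM (counts per 1000000 gene reads) in any library.

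The sequences upstream of both members are shown because their levels moved together across libraries, and that of Fcgbp because it is the neighbouring relative. They are RefSeq sequences of GRCm38.p6, read 5′ to 3′ on the plus strand, and end at the base before the annotated transcript. Capitals mark the letters TATAAA or TATATA, both variants of the TATA box.
Tgm4, chr9:123034491-123034725: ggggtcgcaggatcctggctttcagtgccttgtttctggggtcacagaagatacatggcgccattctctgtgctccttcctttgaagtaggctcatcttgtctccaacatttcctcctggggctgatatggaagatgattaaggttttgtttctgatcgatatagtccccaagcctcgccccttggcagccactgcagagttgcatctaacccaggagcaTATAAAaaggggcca
9530053A07Rik, chr7:28129216-28129465: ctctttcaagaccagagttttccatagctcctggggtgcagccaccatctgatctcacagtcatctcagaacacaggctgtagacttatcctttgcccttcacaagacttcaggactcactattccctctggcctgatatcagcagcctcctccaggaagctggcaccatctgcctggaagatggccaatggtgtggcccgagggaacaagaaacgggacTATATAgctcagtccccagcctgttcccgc
Fcgbp, chr7:28070986-28071235: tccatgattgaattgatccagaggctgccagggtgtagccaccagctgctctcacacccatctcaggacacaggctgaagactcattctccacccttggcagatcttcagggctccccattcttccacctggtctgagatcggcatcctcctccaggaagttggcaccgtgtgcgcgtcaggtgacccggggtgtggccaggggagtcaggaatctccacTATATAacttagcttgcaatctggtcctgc

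The RefSeq start of Tgm4 lies 15 bases after the GENCODE start at which its printed sequence ends, and the letters TATAAA began 30 bases before the RefSeq start. In 9530053A07Rik and in Fcgbp, whose starts are the same in both annotations, the letters TATATA began 30 bases before the start. Searched on both strands, TATAAA was present in 12.4% and TATATA in 5.25% of the 32851 RefSeq windows of 250 bases before a start. A window may hold both motifs where they overlap. TGTTTAC, a forkhead motif present in 3.17% of windows, had no match before any of the 3 genes. The 9530053A07Rik and Fcgbp sequences were identical in 71.2% of 257 aligned columns, while Tgm4 and 9530053A07Rik were identical in 50.2% of 283. Tgm4 and Fcgbp were identical in 50% of 282, so the members were no more alike than Tgm4 and Fcgbp. How alike unrelated sequences are in such an alignment was not tested.

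The libraries held 6569642 to 11225281 gene reads each. Shares below are percentages of these reads, and their 95% Wilson intervals cover counting error only. Elac2 was present in every library at 10.3 to 22.4 CPM, and gene counts do not show whether the deleted exon was lost. The 7 luminal epithelial marker genes (Krt8, Krt18, Krt19, Epcam, Cdh1, Cldn4 and Cd24a) were detected in all 18 libraries, with a summed share of 0.111 to 0.192%.

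Across the libraries the 2 genes ranged from among the most abundant transcripts to near absence. At 10 weeks, 9530053A07Rik took 4.70%, 0.268% and 0.000473% of reads in the WT libraries 10AF, 11AF and 12AF. It took 2.99%, 4.18% and 5.24% in the KO libraries 13AF, 14AF and 15AF. It took 3.30%, 3.61% and 4.93% in the A537T libraries 16AF, 17AF and 18AF. The 6 mutant libraries were thus all high, whereas the WT libraries were spread from high to near 0, and the groups overlapped.

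At 30 weeks the same gene took 0.000643%, 5.30% and 3.87% in the WT libraries 1AF, 2AF and 3AF. In KO it took 2.35%, 0.000535% and 1.97% (4AF, 5AF and 6AF). In A537T it took 0.113%, 0.282% and 0.0481% (7AF, 8AF and 9AF). One WT and 1 KO library were near 0, the other WT and KO libraries were high, and the A537T libraries lay between these levels.

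Tgm4 was high and low in the same libraries, at a lower level. Its share at 10 weeks was 0.570%, 0.0359% and 0.000177% in WT (10AF, 11AF and 12AF). It was 0.384%, 0.545% and 0.652% in KO and 0.411%, 0.505% and 0.677% in A537T, in the order of library numbers. The WT library 10AF stood within the range of the mutant libraries, while 11AF and 12AF stood below all of them.

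At 30 weeks Tgm4 took 0.000471%, 0.633% and 0.457% in WT (1AF, 2AF and 3AF). It took 0.258%, 0.000401% and 0.209% in KO (4AF, 5AF and 6AF) and 0.0115%, 0.0303% and 0.00679% in A537T (7AF, 8AF and 9AF). Again 1AF and 5AF were near 0, and the A537T libraries lay between them and the other WT and KO libraries.

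**Figure D1:**
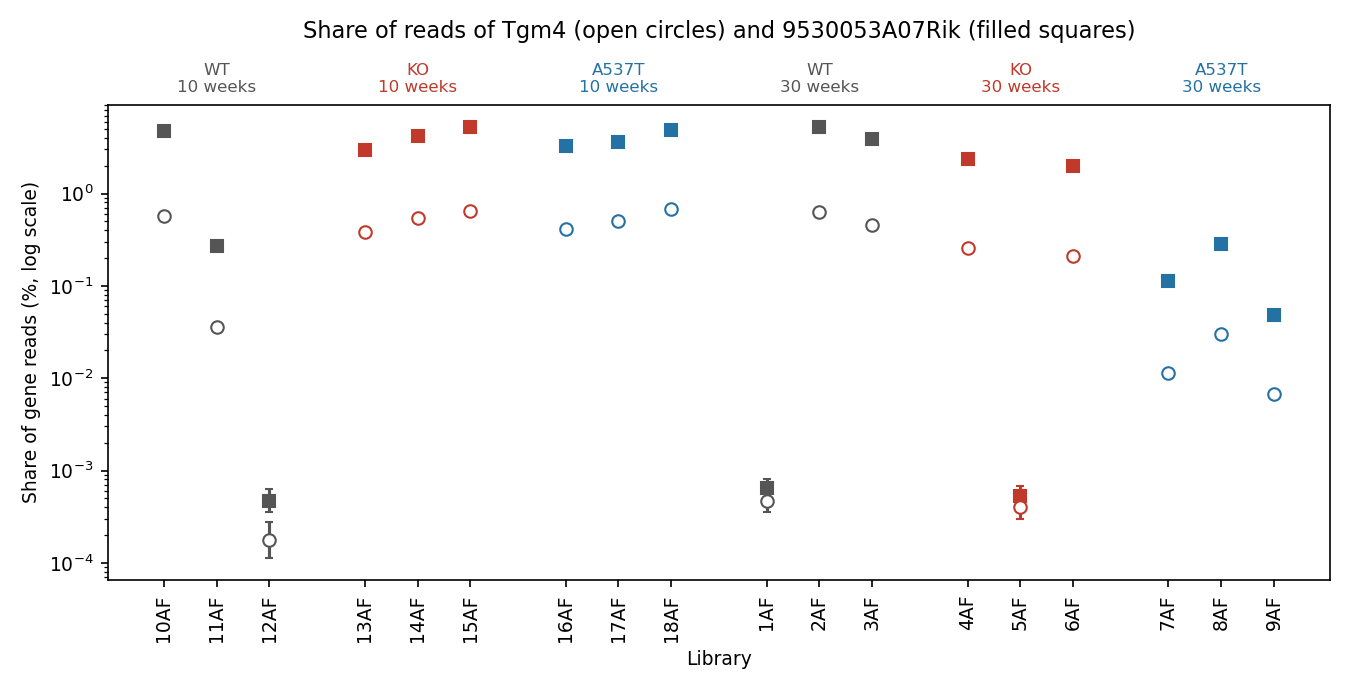
Share of gene reads (%, log scale) of Tgm4 (open circles) and 9530053A07Rik (filled squares) in each of the 18 libraries, coloured by genotype, with 95% Wilson intervals where they exceed the symbol. The 2 genes sit together near 0 in libraries 12AF, 1AF and 5AF, and 9530053A07Rik lies above Tgm4 in every library.

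The libraries therefore held 3 ranges of 9530053A07Rik. In 11 libraries its share was 1.97 to 5.30%, in 4 libraries (11AF, 7AF, 8AF and 9AF) it was 0.0481 to 0.282%, and in 3 libraries (12AF, 1AF and 5AF) it was 0.000473 to 0.000643%. The corresponding shares of Tgm4 were 0.209 to 0.677%, 0.00679 to 0.0359% and 0.000177 to 0.000471%. These ranges describe the values and were not used as groups in any test. Below, levels of other genes are given by these ranges as descriptions only. Genes picked for their likeness to the members differ between the ranges because of that choice. Both ages and all 3 genotypes were present among the 11 libraries, except that no A537T library of 30 weeks was among them.

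The lowest values rested on few reads. Library 12AF held 18 reads of Tgm4 and 48 of 9530053A07Rik among 10151919. Library 1AF held 52 and 71 among 11039356, and library 5AF held 45 and 60 among 11225281. The Wilson interval of the Tgm4 share was 0.000112 to 0.000280% in 12AF, 0.000359 to 0.000618% in 1AF and 0.000300 to 0.000536% in 5AF. These 3 libraries were among the 4 with the most reads.

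By rank, 9530053A07Rik was the 3rd to 6th most abundant gene in the 11 libraries with high levels. By median share, the top 3 genes of a group were Rn7s1 and Rn7s2, annotated as copies of the signal recognition particle RNA, with Svs2, a seminal vesicle clot protein, in KO at 10 weeks and Sbp, the spermine-binding protein of the ventral lobe, in the other groups. Tgm4 ranked between 11th and 23rd in the same libraries. In library 12AF Tgm4 ranked only 12978th and 9530053A07Rik 10489th. The pair together took 5.93% of reads in library 2AF, the highest sum, and 0.000650% in library 12AF, the lowest.

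By group median, the share of Tgm4 was highest in KO at 10 weeks (0.545%), followed by A537T at 10 weeks (0.505%), WT at 30 weeks (0.457%), KO at 30 weeks (0.209%), WT at 10 weeks (0.0359%) and A537T at 30 weeks (0.0115%). The order for 9530053A07Rik was the same except that WT at 30 weeks (3.87%) stood above A537T at 10 weeks (3.61%). The ranges of neighbours in these orders overlapped, with 1 exception. For 9530053A07Rik, KO at 30 weeks (0.000535 to 2.35%) lay below A537T at 10 weeks (3.30 to 4.93%). For both genes all 3 libraries of KO at 30 weeks lay below all 3 of KO at 10 weeks, and the same held for A537T. Of all genes with a mean of at least 10 reads, 21.4% were lower in CPM without overlap at 30 weeks in KO and 15.1% in A537T. The tables of the 2 ages were made separately. In WT the ages overlapped for both members. Mean shares of 9530053A07Rik were 4.14% ± 1.12 (SD, n = 3) in KO and 3.95% ± 0.863 in A537T at 10 weeks, but 1.66% ± 2.64 in WT of that age, where the SD exceeded the mean.

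Against WT of the same table, the log2 fold change of Tgm4 on the scale log2(normalized count + 1) was 4.83 (SE 2.51) in KO and 4.91 (SE 2.47) in A537T at 10 weeks. That of 9530053A07Rik was 5.36 (SE 2.92) and 5.40 (SE 2.86). Both comparisons share the same 3 WT libraries. Without the WT library 12AF the Tgm4 values came to 1.75 and 1.81, and without 10AF to 7.35 and 7.43. For 9530053A07Rik they came to 1.74 and 1.77 without 12AF, and to 8.18 and 8.23 without 10AF. The sizes at 10 weeks were thus set by which WT libraries entered, while the sign was positive in each of these fits.

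At 30 weeks the log2 fold change of Tgm4 was -0.87 (SE 3.47) in KO and -2.11 (SE 2.57) in A537T. That of 9530053A07Rik was -0.80 (SE 4.44) and -1.05 (SE 3.24). In KO the Tgm4 value was -4.26 without the WT library 1AF and 2.24 without the KO library 5AF, and that of 9530053A07Rik was -5.06 and 3.25. Without both of these libraries, a choice made after their levels were seen, it was -1.15 for Tgm4 and -1.01 for 9530053A07Rik. In A537T the Tgm4 value was -5.50 without 1AF and -0.28 without 2AF, and that of 9530053A07Rik was -5.32 and 1.21. When single libraries were left out, the sign for 9530053A07Rik changed in both comparisons at 30 weeks, and that for Tgm4 changed in KO and stayed negative in A537T.

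**Figure D2:**
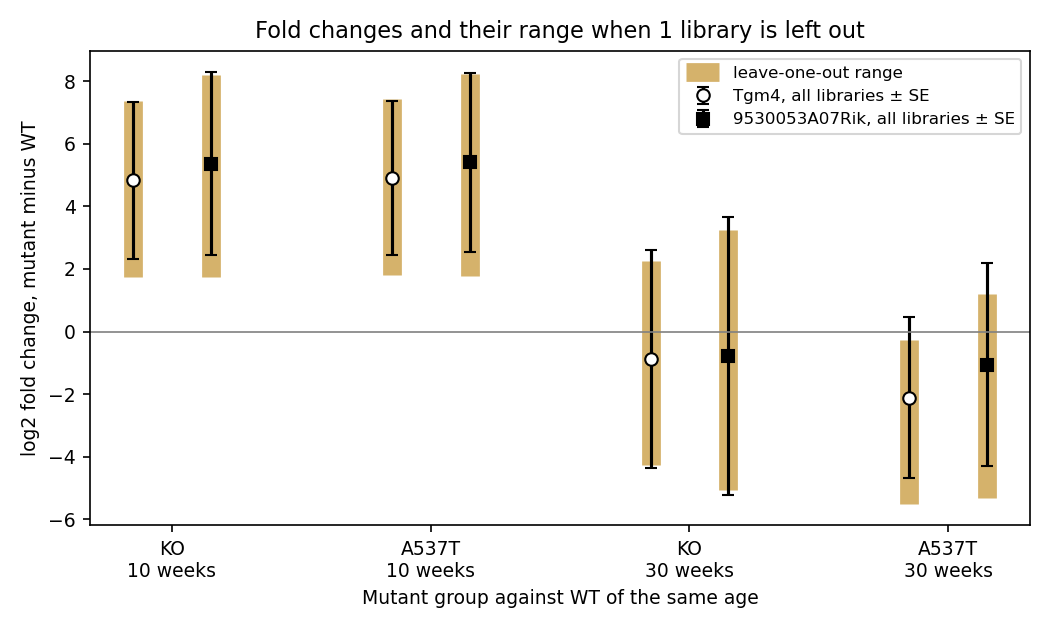
Log2 fold change of Tgm4 (open circles) and 9530053A07Rik (filled squares) in each mutant group against WT of its age, with SE, and as bars the range when 1 of the 6 libraries is left out. The bars span from 1.74 to 8.23 at 10 weeks. At 30 weeks they cross 0 in KO for both genes and in A537T for 9530053A07Rik only.

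The levels of the mutant and WT libraries overlapped for both genes in all 4 comparisons. Over all genes tested, 26% did not overlap between KO and WT at 10 weeks, 11.9% between A537T and WT at 10 weeks, 16.3% between KO and WT at 30 weeks and 18.6% between A537T and WT at 30 weeks. With limma, 0% of genes passed a Benjamini-Hochberg adjusted p of 0.05 in each comparison, that is 0 of 15089, 15131, 14729 and 14789 genes in the order just given. At an unadjusted p under 0.05 there were 2930, 973, 1616 and 2016 genes. The edgeR quasi-likelihood test also called 0 genes in each, and DESeq2 called 715, 90, 285 and 472.

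Tgm4 and 9530053A07Rik kept a nearly fixed ratio in the 15 libraries with at least 500 Tgm4 reads, but not in the others. In these 15 there were 0.101 to 0.141 Tgm4 reads per 9530053A07Rik read, a span of 1.40-fold. The share of Tgm4 spanned 99.8-fold there and that of 9530053A07Rik 110-fold. Over all libraries the shares spanned 3818-fold and 11212-fold. At 10 weeks the ratio was 0.121 and 0.134 in the WT libraries 10AF and 11AF, 0.128, 0.130 and 0.125 in KO, and 0.124, 0.140 and 0.137 in A537T. At 30 weeks it was 0.119 (2AF) and 0.118 (3AF) in WT, 0.110 (4AF) and 0.107 (6AF) in KO, and 0.101, 0.108 and 0.141 in A537T. The counting intervals of the 30-week A537T ratios were 0.0951 to 0.108 in 7AF, 0.103 to 0.112 in 8AF and 0.129 to 0.154 in 9AF.

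The ratio left this range in the libraries with the fewest reads. It was 0.375 (95% interval 0.220 to 0.640) in 12AF, 0.732 (0.513 to 1.05) in 1AF and 0.750 (0.511 to 1.10) in 5AF. All of these intervals lay above the ratios of the other 15 libraries. In these 3 libraries 9530053A07Rik was thus nearer to Tgm4 than elsewhere. Reads of Fcgbp were 12, 36 and 33 there, or 25.0 to 55.0 per 100 reads of 9530053A07Rik, against 0.0472 to 0.0994 per 100 in the 11 libraries with high levels. Since the transcripts of these neighbours share sequence, their reads may have been split between them, and both values are uncertain where 9530053A07Rik is low. How much of the ratio came from such sharing was not tested.

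Reads of a long transcript outnumber those of a short one at the same number of molecules. Per base of transcript, 9530053A07Rik was 2.49 to 3.46 times as abundant as Tgm4 in the 15 libraries, against 7.09 to 9.85 times in reads. In 12AF, 1AF and 5AF it was 0.937, 0.480 and 0.469 times as abundant per base. These values use transcript lengths of a GENCODE release older than that of the deposited tables.

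The WT libraries stand in both tables of their age, and their reads differed between them. At 30 weeks Tgm4 had 9.51 to 9.62% more reads in the A537T table than in the KO table, while the difference for 9530053A07Rik was -1.41 to -0.512%. With the A537T table the ratio of 2AF was 0.132 and that of 3AF 0.130, against 0.101 to 0.141 in the A537T libraries of that table. At 10 weeks the difference between the same tables was 0 to 1.31% for Tgm4 and -2.08 to -1.01% for 9530053A07Rik. Ratios of WT and mutant libraries are therefore best compared within 1 table.

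**Figure D3:**
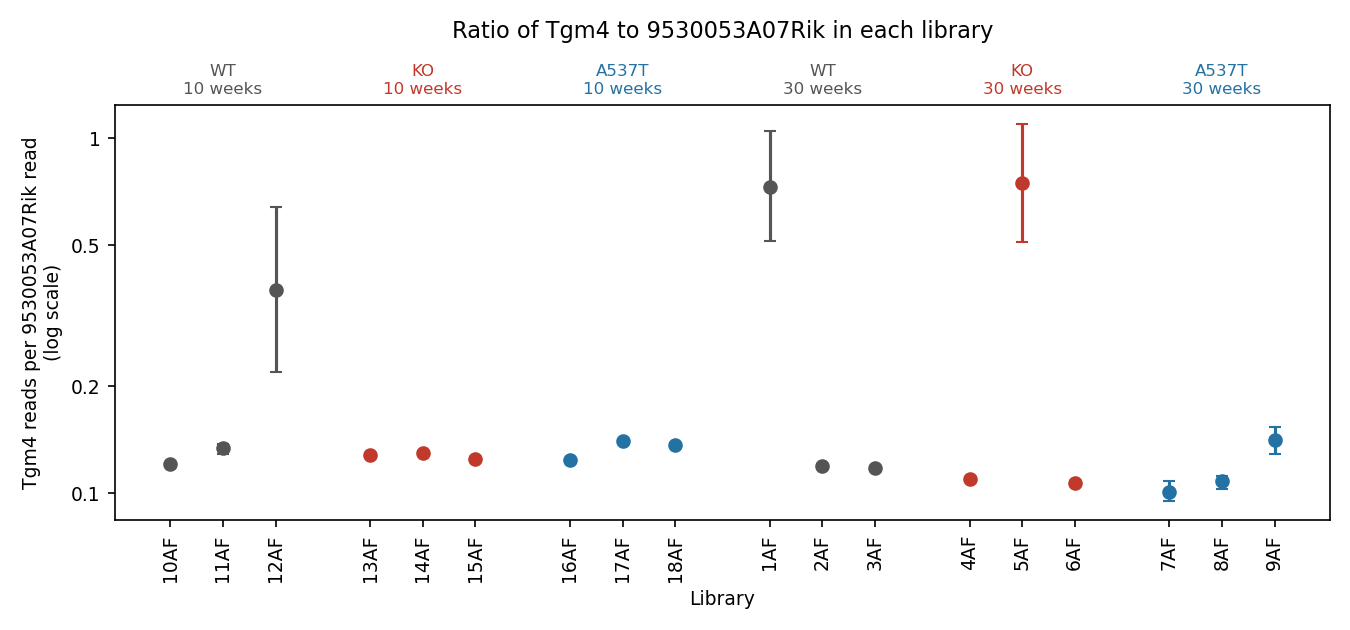
Tgm4 reads per 9530053A07Rik read (log scale) in each library, coloured by genotype, with 95% intervals for counting error and WT values from the KO tables. In 15 libraries the ratio lies between 0.101 and 0.141, and in 12AF, 1AF and 5AF between 0.375 and 0.750.

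The genes whose log2(CPM + 1) was most like that of Tgm4 over the 18 libraries, among 8974 genes with a mean of at least 10 CPM, were Tcaf3 (Pearson r = 0.993), 9530053A07Rik (0.993), Gm5615 (0.993), C1rb (0.991) and Mmp7 (0.967). Those most like 9530053A07Rik were Gm5615 (0.995), Tgm4 (0.993), Tcaf3 (0.986), C1rb (0.981) and Col4a6 (0.948). The libraries are points that share their tissue mixture and depth, so these values describe the data. Without 12AF and 5AF, the libraries farthest from the median, r between the members was 0.989, and Spearman's rho over all 18 libraries was 0.988.

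Tcaf3, annotated as a TRPM8 channel-associated factor, had 438 to 3920 CPM in the 11 libraries with high levels of the members. It had 0.0985, 1.36 and 0.178 CPM in 12AF, 1AF and 5AF, or 1, 15 and 2 reads. C1rb, which encodes a form of the complement protease C1r, had 189 to 400 CPM in the 11 libraries, and 0, 0 and 1 reads in 12AF, 1AF and 5AF. A count of 0 allows up to 3 reads. Mmp7, the secreted metalloproteinase matrilysin, had 115 to 438 CPM in the 11 libraries and 1.08, 5.35 and 12.1 CPM in the 3 others. Col4a6, a basement membrane collagen chain, had 7.09 to 15.3 CPM in these 3 libraries and 108 to 381 CPM in the 11.

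Tcaf3 stood lower relative to Tgm4 in the KO libraries 4AF and 6AF than in other high libraries. It had 549 and 438 CPM there, whereas the lowest of the other 9 was 2059 CPM. C1rb, at 280 and 235 CPM, was within the range of the other 9, so the companions did not all move in step in these 2 libraries.

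**Figure D4:**
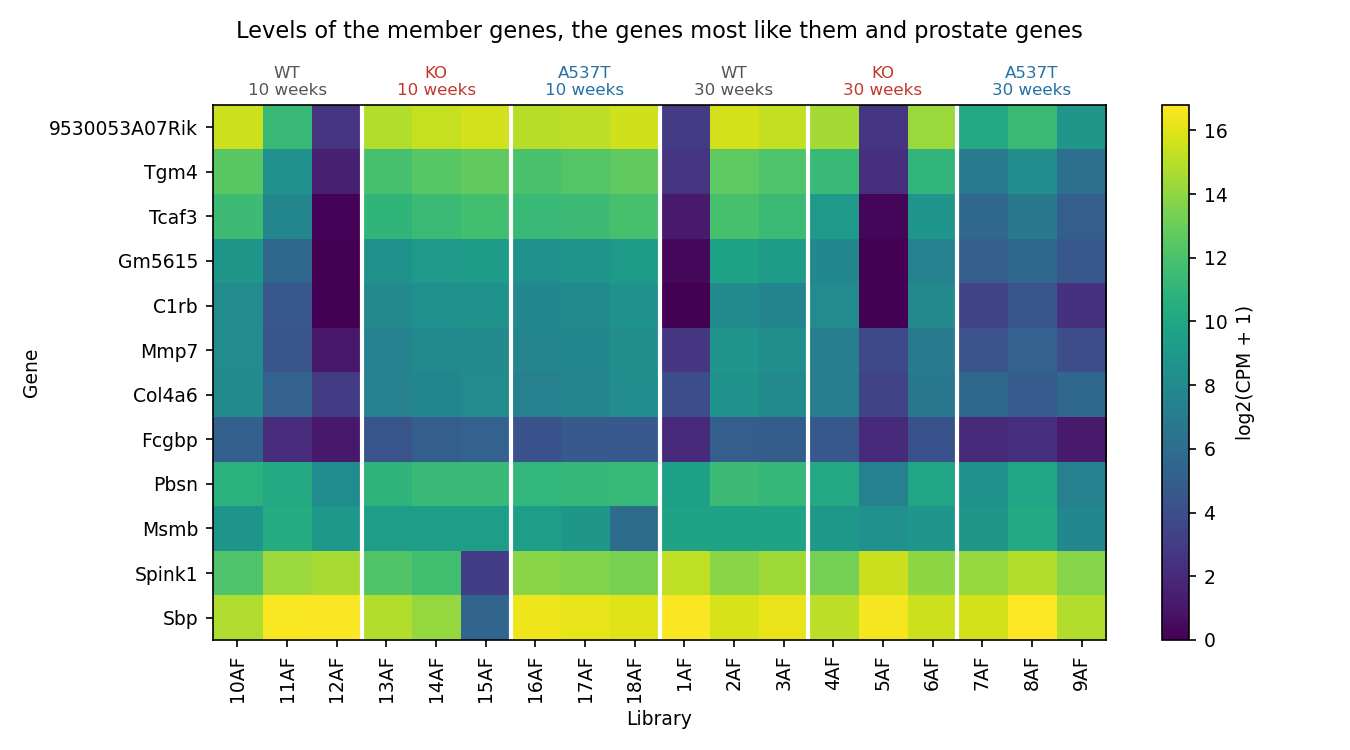
Heat map of log2(CPM + 1) for both members, the genes most like them, Fcgbp and 4 prostate secretory genes (rows) in the 18 libraries (columns, by group). Columns 12AF, 1AF and 5AF are dark for the members and their companions but bright for Spink1 and Sbp, and 15AF is dark for Spink1 and Sbp.

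Secreted proteins of the ventral lobe showed another pattern. Sbp was at 95287 to 107560 CPM in 12AF, 1AF and 5AF and at 42.8 to 85141 CPM in the 11 libraries where the members were high. Spink1, a secreted trypsin inhibitor, was at 24722 to 44644 CPM and 7.15 to 22117 CPM. In the KO library 15AF, which had the highest share of 9530053A07Rik of its age, Sbp stood at 42.8 and Spink1 at 7.15 CPM. Across the 18 libraries, Pearson r of Sbp was -0.34 with Tgm4 and -0.33 with 9530053A07Rik, and Spearman's rho was -0.529 and -0.525. For Spink1, r was -0.44 with Tgm4 and -0.42 with 9530053A07Rik, and rho was -0.742 and -0.709. The inverse relation was thus stronger by rank. The A537T library 8AF had 113985 CPM of Sbp with a middle level of the members, so high Sbp went with different levels of them.

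Pigr, the receptor that carries polymeric immunoglobulins across the epithelium, had r = -0.52 with Tgm4 and -0.50 with 9530053A07Rik. It was at 798, 2654 and 3064 CPM in 12AF, 1AF and 5AF and at 26.3 CPM in 15AF. Azgp1, a secreted zinc-binding glycoprotein, had r = -0.51 and -0.52.

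Pbsn and Msmb differed from these genes. Pbsn, probasin, an androgen-regulated secretory protein whose promoter also drives the Cre of the KO line, had r = 0.86 with Tgm4 and 0.83 with 9530053A07Rik. Its levels spanned 159 to 2881 CPM, a far narrower range than those of the members, and it was at 288, 730 and 164 CPM in 12AF, 1AF and 5AF. Msmb, a beta-microseminoprotein, had r = -0.04 and -0.02. It was at 369 to 805 CPM in the 3 libraries with the lowest member levels and at 60.5 to 871 CPM in the 11 with the highest.

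The 7 luminal epithelial markers summed to 0.111, 0.180 and 0.192% in 12AF, 1AF and 5AF, just outside the range of the other 15 libraries (0.125 to 0.171%). Per luminal marker read there were 0.00425, 0.00357 and 0.00278 reads of 9530053A07Rik in the 3 libraries, against 13.4 to 37.5 in the 11. In whole lobes, fewer cells that make these transcripts and less of them per cell cannot be told apart.

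The members had no steady relation with the genes of the seminal vesicle. The 8 seminal vesicle genes (Svs1, Svs2, Svs3a, Svs3b, Svs4, Svs5, Svs6 and Pate4) encode proteins secreted by the seminal vesicle. At 10 weeks they summed to 0.000808 to 4.64% of reads for WT, 6.55 to 10.3% for KO and 0.0374 to 0.191% for A537T. At 30 weeks the sum was at most 0.000335% in WT, while KO ranged from 0.0000713 to 8.53% and A537T from 0.0000799 to 9.17%. They were near 0 in 12AF, 1AF and 5AF, and equally in 2AF and 3AF, where the members were high. In 7AF and 9AF they took 7.24% and 9.17% at a middle level of the members. At the younger age the 10 skeletal muscle genes took 1.28 to 4.59% for WT, 0.0230 to 0.712% for KO and 0.429 to 1.35% for A537T. In WT of that age they took 4.59% in 12AF, 2.31% in 11AF and 1.28% in 10AF, in the order in which the members rose. The members were high in all mutant libraries of that age, at muscle sums of 0.0230 to 1.35%. This relation was not tested. At 30 weeks the muscle genes took 0.00833 to 0.0317%, with 0.0276% in 1AF and 0.0317% in 5AF. With the seminal vesicle and skeletal muscle genes left out of the total, 9530053A07Rik took 0.000496% in 12AF and 4.99% in 10AF.

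Markers of further cell types were present at low shares. Over the 18 libraries, smooth muscle genes summed to 0.152 to 0.857%, basal epithelial genes to 0.00514 to 0.0404%, adipocyte genes to 0.000670 to 0.0566%, urothelial genes to 0.00757 to 0.0447% and immune genes to 0.00370 to 0.0184%. Smooth muscle genes were lowest in 12AF, and basal, smooth muscle and urothelial genes were highest in the A537T library 18AF, where Tgm4 had its highest share. Upk3a, a urothelial marker, had 0 reads in 9 libraries. The part of these tissues in the members' levels was not tested.

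Among the other 8 transglutaminase genes, none varied like Tgm4. Tgm2, the widely expressed tissue transglutaminase, had 75.9 to 175 CPM, and F13a1, the A subunit of coagulation factor XIII, had 7.11 to 36.5 CPM. Tgm5 had 2.59 to 12.2 CPM and Tgm1 0.235 to 3.71 CPM, both known from the epidermis. Tgm3, Tgm7 and Epb42 had at most 5 reads in a library, and Tgm6 had 0 reads in all 18. In each comparison 4 of the 8 were tested and 0 passed limma's threshold. The median fold change of these 4, on the log2 scale, was -0.28 for KO and 0.09 for A537T at the younger age, and -0.23 and -0.03 at the older, beside medians of all genes tested between -0.01 and 0.01.

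Of the other 11 genes for proteins with von Willebrand D domains, 3 were tested in each comparison and 0 passed. Fcgbp had 17.6 to 37.4 CPM in the 11 libraries with high levels of the members, 1.29 to 3.77 CPM in the 4 middle ones and at most 3.26 CPM in the 3 low ones. Its Pearson r with 9530053A07Rik was 0.86. In A537T at 30 weeks its log2 fold change against WT was -2.71 (SE 0.887, limma adjusted p = 0.301). On the normalized counts of the A537T table its 3 A537T libraries lay below all 3 WT libraries. With CPM of WT taken from the KO table the groups overlapped, with 3.77 in the A537T library 8AF and 3.26 in the WT library 1AF. The mean normalized count of Fcgbp in WT at 30 weeks was 222.9 in the A537T table and 199.5 in the KO table. The WT values thus differed between the tables, and the overlap in CPM was not compared within 1 table. As its reads may belong in part to 9530053A07Rik, this value is uncertain. Vwf, the clotting factor of endothelial cells, had 11.1 to 43.1 CPM. The secreted mucins Muc5ac and Muc6 had 0 reads in all libraries.

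The prostate secretory genes, 12 in number, were all tested except Ren1 in A537T at 30 weeks, and 0 of them passed in any comparison. The median log2 fold change of the secretory genes was -0.34 in KO of 10 weeks, -0.07 in A537T of 10 weeks, -0.69 in KO of 30 weeks and -0.75 in A537T of 30 weeks. On the normalized counts, 2 secretory genes were higher and 4 lower in KO at 10 weeks without overlap with WT (Pbsn and Clu higher, Azgp1, Pigr, Sbp and Spink1 lower), where 26% of all genes did not overlap. In CPM, Sbp and Spink1 did overlap there, with 29853 and 4928 CPM in KO library 13AF and 29054 and 4574 CPM in WT library 10AF. The counts were 1 higher (Pbsn) and 1 lower (Ren1) in A537T of that age, beside 11.9% of all genes. They were 1 higher (Clu) and 3 lower (Apof, Defb50 and Msmb) in KO at 30 weeks, beside 16.3%, and 0 higher and 2 lower (Defb50 and Pigr) in A537T, beside 18.6%. The 2 members overlapped in each of these comparisons.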

How the data were processed

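RNA from ventral and lateral prostate lobes was sequenced (TruSeq, NovaSeq), with 3 libraries in each of 6 groups. The authors trimmed reads (Trim Galore 0.4.1, cutadapt 1.18), aligned them to GRCm38.p6 with STAR 2.7.3a and quantified genes with Salmon and tximport. The signal values as deposited are counts that the authors scaled by DESeq2 1.26 size factors, in 4 tables of 55469 genes. Each table pairs 1 mutant line with the WT libraries of its age, and a library in both tables of an age was taken as WT. Library names carry no replicate number. Files of the authors' fold changes and s-values were not used.

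Whole reads were recovered by dividing each library by its smallest value (at least 99.99% whole within 0.05 reads), and WT shares came from the KO tables. limma 3.58.1 (R 4.3.3, lmFit, eBayes with a mean trend) was run per table on log2(normalized count + 1) for genes averaging 10 or more, with a Benjamini-Hochberg threshold of 0.05. It was tried on counts simulated with the same relative spread in all genes. These libraries differ from that setting, so the trial does not show how the test performs on them. Its p-values set the difference between mutant and WT against the spread between these libraries. The alternatives were edgeR 4.0.16 and DESeq2 1.42.0 on recovered reads, pseudocount 8, no filter, other scalings, other denominators of shares and leaving out each library.

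The members, gene lists and rules were chosen with earlier results of these data known. Named genes are the members, Elac2, the lists (transglutaminases, von Willebrand D proteins, prostate secretory genes, seminal vesicle genes, cell type markers), the 5 genes most correlated with each member, and up to 3 genes with the largest median share of a group. A few genes that the rule covers were left out of the text. Gm49323 was named after its overlap with Tgm4 was seen. Symbols came from a reference table (55107 of 55469 IDs matched), transcripts from GENCODE vM21 and promoters from RefSeq (3 of 3 genes matched). Shares, intervals and motifs were computed in Python 3.11.15.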

Additional observations from a re-analysis of the deposited data

Results flagged for a closer look

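The summed share of the 7 luminal epithelial genes moved in opposite directions at the 2 ages in A537T. All 3 A537T libraries lay above WT at 10 weeks (log2 ratio of mean shares 0.24) and all 3 below WT at 30 weeks (log2 ratio -0.17). The difference between the ages was not tested. KO libraries at 10 weeks also all lay above WT, at 0.142 to 0.151% against 0.111 to 0.135%. Skeletal muscle genes took 1.28 to 4.59% in WT and 0.429 to 1.35% in A537T at 10 weeks, and seminal vesicle genes took up to 9.17% in A537T and at most 0.000335% in WT at 30 weeks. Their part in the difference was not tested. With libraries scaled to the same total, the median log2 fold change of all genes was 0.149 in A537T at 10 weeks and 0.0184 at 30 weeks. On normalized counts the median of the 7 luminal genes in A537T was 0.134 at 10 weeks and -0.303 at 30 weeks. At 10 weeks 1 of them was higher without overlap, beside 11.9% of all genes. At 30 weeks 4 were lower without overlap, beside 18.6%.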

How the results depend on the processing

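The fold changes of both genes moved by less than the spread between replicates with pseudocount 8, scaling to the same total or edgeR TMM scaling. That spread was wide. By the same rule, the drop of Tgm4 from 4.83 to 1.75 without 12AF in KO at 10 weeks also counted as unmoved. The rule could thus hardly register a move. In that comparison Tgm4 was 4.68, 5.04 and 4.84 under the 3 settings. Leaving out 1 library gave 1.75 to 7.35 for Tgm4 and 1.74 to 8.18 for 9530053A07Rik in KO at 10 weeks, and 1.81 to 7.43 and 1.77 to 8.23 in A537T. At 30 weeks it gave -4.26 to 2.24 and -5.06 to 3.25 in KO, and -5.50 to -0.28 and -5.32 to 1.21 in A537T. Library 12AF or 10AF set the ends at 10 weeks, and 1AF with 5AF or 2AF at 30 weeks. There were 24 alternative log2 ratios of median shares between mutant and WT. They used totals without seminal vesicle and muscle genes, luminal reads as the denominator, or WT from the other table. Of these, 0 moved by more than the spread between replicates, which is as hard to pass here. For 9530053A07Rik in KO at 30 weeks, among the widest shifts, the ratio went from -0.977 to -0.759 per luminal read. With WT from the other table the ratio of 10AF, 2AF and 3AF left its counting interval (0.124, 0.132 and 0.130). Spearman's rho kept 2 of the 5 genes most like Tgm4 and 3 of the 5 most like 9530053A07Rik.

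Genes called were 0 in every comparison with limma, but DESeq2 called 715 and 90 in KO and A537T at 10 weeks and 285 and 472 at 30 weeks. Without a filter on low values 2 were called in A537T at 10 weeks. Leaving out 1 library gave 0 to 2886 in KO at 10 weeks (2886 without 10AF, 185 without 14AF), 0 to 50 in A537T at 10 weeks (50 without 10AF, 1 without 11AF, 2 without 12AF), 0 to 944 in KO at 30 weeks (944 without 5AF, 2 without 1AF) and 0 to 1224 in A537T at 30 weeks (1224 without 8AF, 6 without 1AF). The cause was not tested. Scaling to the same total moved the median of all genes to 0.20 in KO and 0.15 in A537T at 10 weeks. No paired analysis was possible because the library names carry no replicate numbers. Depth limits the ratios of 12AF, 1AF and 5AF, which rest on 18 to 71 reads a gene, and the fold changes that these libraries enter. It also limits the Fcgbp fold change in A537T at 30 weeks, where 7AF, 8AF and 9AF held 27, 33 and 11 reads. The levels of Tcaf3 and C1rb in 12AF, 1AF and 5AF rest on few reads as well.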
